A study of Drosophila melanogaster with 12 samples.

Results

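Fatp1, NaPi-III and Wdr24 are 3 genes of nutrient handling whose transcripts were measured in whole virgin flies of Drosophila melanogaster. They were chosen by identifier, as FBtr0080133, FBtr0076213 and FBtr0085543, and are 3 of the 16637 transcripts with a value. The groups were males evolved under monogamy, males evolved under polygamy, females evolved under monogamy and females evolved under polygamy, with 3 arrays each. The 6 populations, 3 of each regime, had spent 65 generations under their regime, and the flies were 4 days old, unmated and of the genetic background labelled IV. Each population gave 1 male and 1 female sample of total RNA, hybridised in 1 colour (Cy3) to a NimbleGen array. Monogamy removes competition among males and choice among mates, and the design asks how expression differs with sex and with regime.

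Fatp1 belongs to the fatty acid transport proteins, membrane proteins that bring long-chain fatty acids into cells and help to couple them to coenzyme A. In the fly it is known from the retina, where it acts in lipid droplets of pigment cells. NaPi-III belongs to the PiT family, which carries inorganic phosphate into cells together with sodium. Wdr24 is a subunit of GATOR2, a complex that opposes GATOR1, the inhibitor of the amino acid arm of the TORC1 growth pathway. In the fly, Wdr24 is known to be needed for TORC1 activity and for lysosome function, and its partner mio takes its name (missing oocyte) from its requirement in the ovary.

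Gene names came from a RefSeq gene table of assembly Release 6, which paired 44 of the 16637 identifiers with a symbol. Fatp1 (locus tag CG46149, older tag CG7400) lies on chromosome arm 2L, NaPi-III (CG42575, older tag CG7628) on 3L and Wdr24 (CG7609) on 3R. RefSeq lists 4 transcripts for Fatp1, 2 for NaPi-III and 2 for Wdr24, so each value stands for 1 of several transcripts of its gene, as far as the array separates them. Fatp1 lies between the protein-coding genes CG7384 and Lrr47, and Wdr24 between Gnpnat and IntS11. The NaPi-III gene overlaps the genes CG32074 and nol in that table, and whether the array's probes avoid them is not given in the sources used here. Coordinates are left out because the annotation behind the array is not given.

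The array of polygamy female 3 stood apart from the others. The dimmest 5% of its values reached 5.42, compared with 4.30 to 4.43 for the remaining female arrays. Pearson r with each of those arrays averaged 0.733, while their own averages ran from 0.894 to 0.924. Transcripts near background in both sexes lay a median of 2.32 above the other females in it. In monogamy male 1, 39 transcripts that were dim in the other males and bright in females lay a median of 3.36 higher. Transcripts dim in the other females and bright in males lay a median of 3.02 higher in polygamy female 3 (349 transcripts) and 1.15 higher in polygamy female 2 (348 transcripts), and between -0.32 and -0.06 in the remaining females. The 3 genes were well above the dimmest transcripts throughout: the lowest rank was that of Wdr24 in males, with 30.9% of the array below it. Results that rest on polygamy female 3 are given with and without it (n = 2 in its group). None of the 26 tissue marker genes listed for a check of whole flies was among the named identifiers, so the labelled tissue could not be checked against markers.

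Fatp1 was higher in males than in females, and its females differed far more from each other than its males. In monogamy males its log2 values were 13.78, 13.35 and 13.48, and in polygamy males they were 13.29, 13.47 and 13.45. In monogamy females they were 13.19, 12.94 and 12.83, and in polygamy females 12.12, 12.68 and 10.12. All 6 males lay above all 6 females, and the low value of 10.12 belongs to polygamy female 3. The groups ranked from monogamy males through polygamy males and monogamy females to polygamy females. The 2 male groups overlapped, whereas polygamy males and monogamy females, and monogamy and polygamy females, did not overlap.

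**Figure D1:**
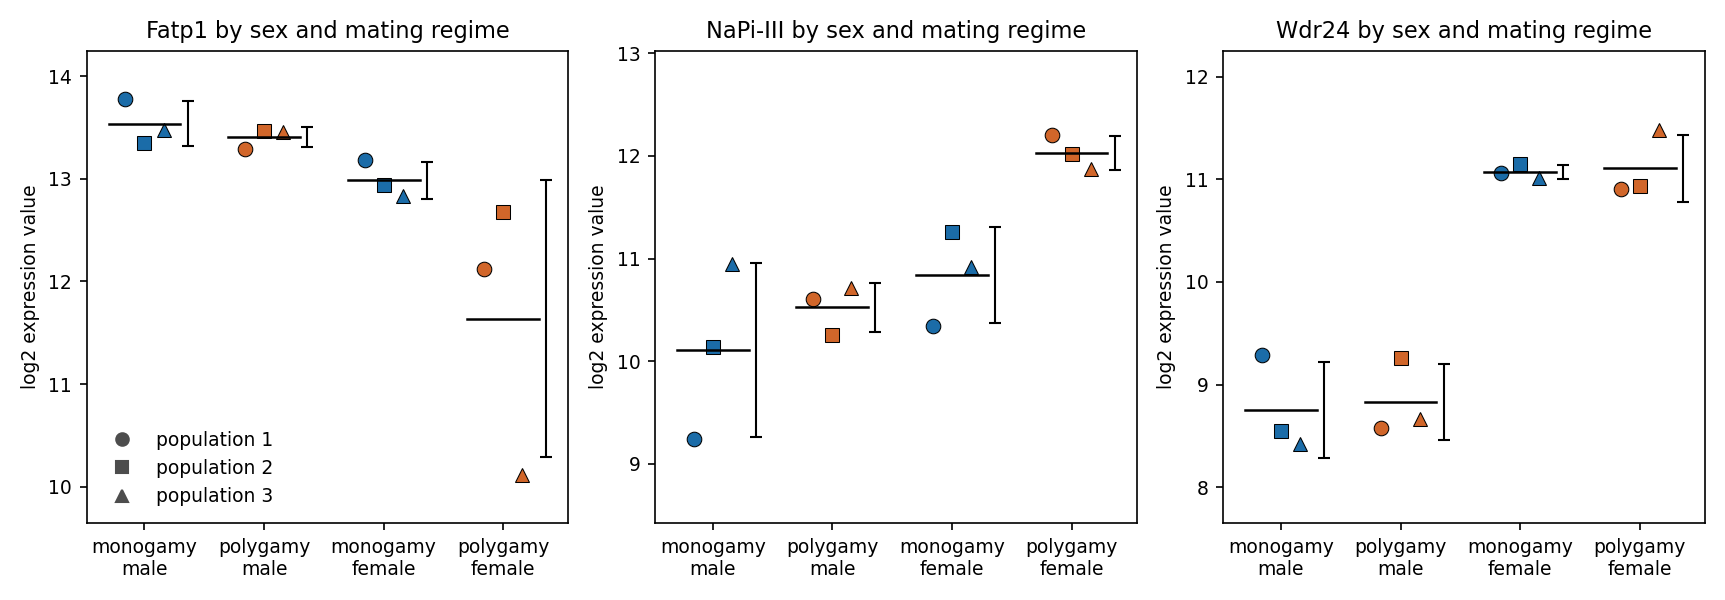
Log2 expression value (vertical axis, each panel spanning the same range) of Fatp1, NaPi-III and Wdr24 in each array, by group, with 1 symbol per population, a line at the group mean and a bar of 1 SD (n = 3). Polygamy female 3 is the low Fatp1 point at 10.12, and the polygamy females hold the NaPi-III values of 11.87 and higher.

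The sex difference of Fatp1, averaged over regimes, was 1.16 on the log2 scale (SE 0.37, adjusted p = 0.0211, limma with Benjamini-Hochberg adjustment over all transcripts), which is 2.23-fold. Males averaged 13.47 ± 0.17 and females 12.31 ± 1.13 (SD, n = 6 each). Left without polygamy female 3, the difference was smaller, at 0.78 or 1.71-fold, but its SE fell to 0.15 and its adjusted p to 0.00146. The SD of the remaining 5 females was 0.40. Over single arrays, the two-sided exact permutation p was 0.00216, the smallest that 6 against 6 can give. This permutation did not keep the male and the female of a population paired. In whole flies, fewer cells of a type and less RNA per cell cannot be told apart.

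In every population the male value of Fatp1 exceeded the female value. The male minus female difference was 0.59, 0.41 and 0.64 in the monogamy populations and 1.17, 0.79 and 3.34 in the polygamy populations. The polygamy differences all lay above the monogamy differences, also when the 3.34 of population 3 is set aside. How many of all transcripts separate in this way was not counted. Within monogamy the difference was 0.55 (SE 0.52, adjusted p = 0.446), and within polygamy it was 1.77 (SE 0.52, adjusted p = 0.0200). Of all transcripts, 38.4% were called within monogamy and 42.4% within polygamy, or 54.8% and 50% once polygamy female 3 was left out. In that fit the monogamy difference, whose own arrays were unchanged, had a smaller SE of 0.21 from the spread shared by all groups and was called (adjusted p = 0.0454). The polygamy difference was then 1.01 (adjusted p = 0.00502). The polygamy call was lost without polygamy male 2 (adjusted p = 0.0510), without polygamy male 3 (adjusted p = 0.0566) and with the polygamy arrays fitted alone (adjusted p = 0.0986).

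That the sex difference depends on the regime was not shown. The interaction of sex and regime for Fatp1 was -1.22 (SE 0.74, adjusted p = 0.862), and it was -0.46 (SE 0.31, adjusted p = 0.775) without polygamy female 3. The exact permutation p over the 6 populations was 0.1, the smallest that 3 against 3 can give. It was 0.2 without polygamy population 3, the smallest that 3 against 2 can give.

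**Figure D2:**
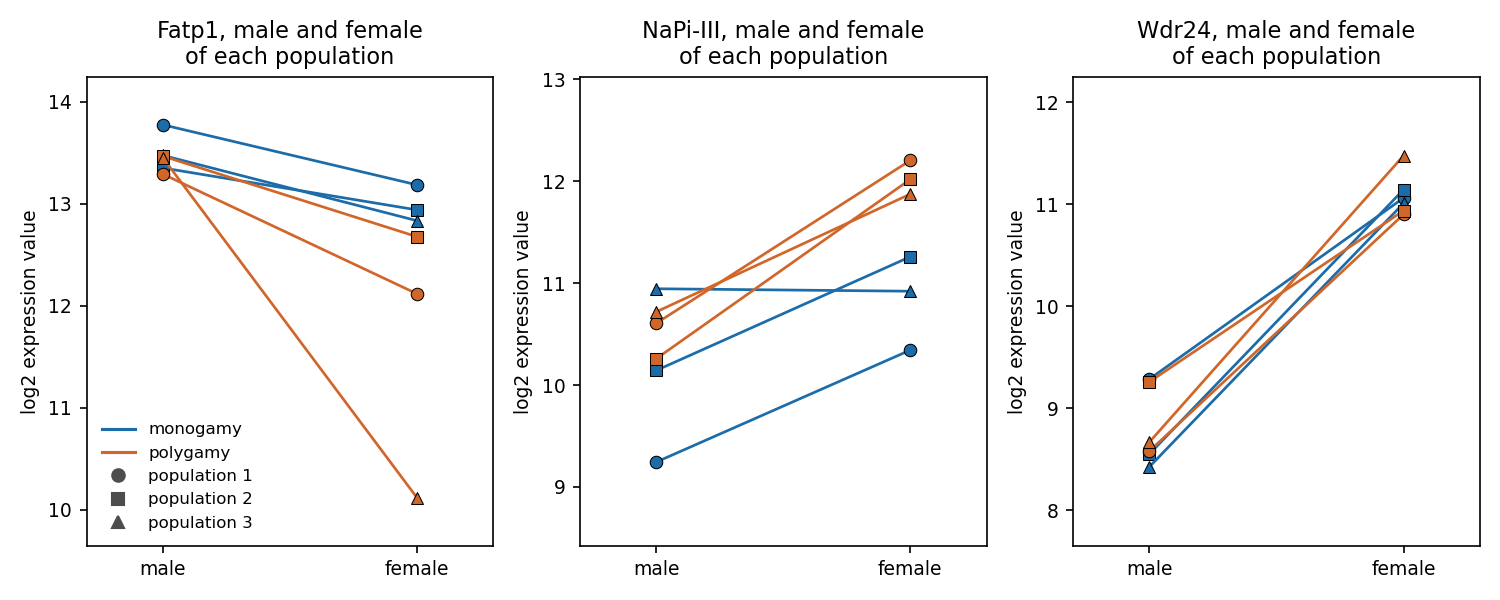
Log2 expression value (vertical axis) of the male and the female sample of each of the 6 populations (horizontal axis), joined by a line and coloured by regime, for Fatp1, NaPi-III and Wdr24. Fatp1 lines fall to the female in every population and steepest in polygamy population 3 (3.34), while Wdr24 lines rise in every population.

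In polygamy female 3, Fatp1 was lower than most transcripts of like level. Its value lay 2.72 below the median of the other 5 females, a shift of -2.72. The 1054 transcripts whose median in those females was within 0.25 of that of Fatp1 shifted by a median of -0.59, with quartiles of -1.36 and 0.06. Of these transcripts, 4.55% shifted lower than Fatp1. NaPi-III and Wdr24 went the other way in the same array, with shifts of 0.62 and 0.47. Transcripts of like level shifted by a median of -0.50 (quartiles -1.56 and 0.47) and -0.46 (quartiles -1.64 and 0.56). Of these, 78.4% shifted lower than NaPi-III and 73.6% lower than Wdr24, whose shift lay within the quartiles. The shift of NaPi-III was larger in polygamy females 1 (0.95) and 2 (0.76), so it was not particular to polygamy female 3. The part of the array's general shift in the Fatp1 result was not tested.

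**Figure D3:**
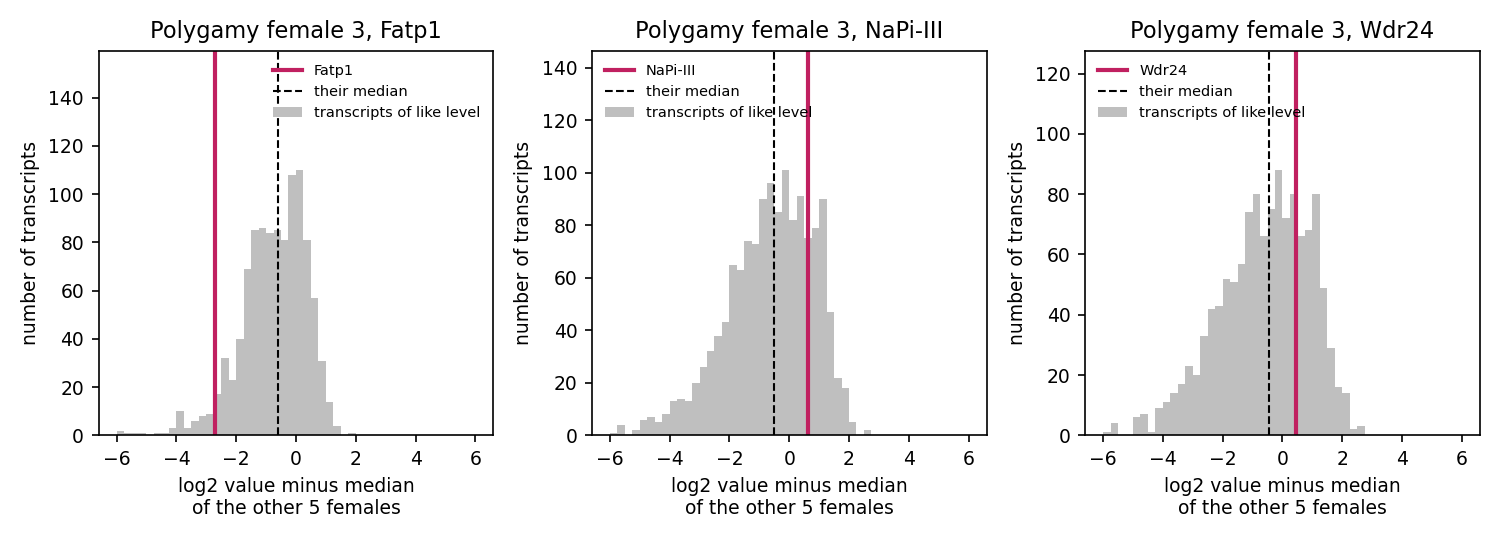
Number of transcripts (vertical axis) by their log2 value in polygamy female 3 minus the median of the other 5 females (horizontal axis), for transcripts within 0.25 of the level of each gene, with the gene as a solid line and their median as a dashed line. Fatp1 lies at -2.72 in the lower tail, and NaPi-III (0.62) and Wdr24 (0.47) lie above the medians.

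Between regimes, the 3 monogamy females lay above the 3 polygamy females in Fatp1, but the difference did not pass the test. Monogamy females averaged 12.99 ± 0.18 and polygamy females 11.64 ± 1.35 (SD, n = 3 each), a difference of 1.35 (SE 0.52, 95% interval 0.19 to 2.51, adjusted p = 0.141). With polygamy female 3 left out it was 0.59 (SE 0.23, adjusted p = 0.183), and polygamy females then averaged 12.40 ± 0.40 (SD, n = 2). The difference passed without polygamy female 2 (1.87, adjusted p = 0.0459), the array with the most Fatp1 in its group. That fit kept polygamy female 3, with its value of 10.12. It called 2080 of all 16637 transcripts for regime in females, against 10 with all arrays. The part of the raised male transcripts of polygamy female 2 in its Fatp1 value was not tested. In males the regimes overlapped, with means of 13.53 ± 0.22 for monogamy and 13.40 ± 0.10 for polygamy (SD, n = 3 each), a difference of 0.13 (95% interval -1.03 to 1.29).

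NaPi-III was higher in females than in males, and highest in polygamy females. Monogamy males had log2 values of 9.24, 10.14 and 10.94, and polygamy males had 10.60, 10.26 and 10.72. Monogamy females had 10.34, 11.26 and 10.92, and polygamy females had 12.20, 12.02 and 11.87. The 3 polygamy females lay above all 9 other arrays, and the other 3 groups overlapped with each other. How many of all transcripts have 1 group above all other arrays was not counted. The lowest value of 9.24 came from monogamy male 1.

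The sex difference of NaPi-III, averaged over regimes, was -1.12 (SE 0.29, adjusted p = 0.00684), or 2.17-fold lower in males. Males averaged 10.32 ± 0.60 and females 11.44 ± 0.72 (SD, n = 6 each). It was as large, at -1.16 (SE 0.30, adjusted p = 0.00667), without polygamy female 3. The exact permutation p over single arrays, again without the pairing by population, was 0.0195.

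Within polygamy, the male minus female difference of NaPi-III was -1.51 (SE 0.40, adjusted p = 0.0124), and the sexes did not overlap. It was -1.58 (adjusted p = 0.0146) without polygamy female 3. Within monogamy the difference was -0.73 (SE 0.40, 95% interval -1.62 to 0.16, adjusted p = 0.182), and the sexes overlapped. By population, the male minus female difference was -1.10, -1.12 and 0.02 in the monogamy populations and -1.60, -1.76 and -1.16 in the polygamy populations. Monogamy population 3 was the only 1 of the 6 in which the male value was not the lower. Without its male array the monogamy difference was -1.15 and was called (adjusted p = 0.0392). That fit called 4985 of all 16637 transcripts within monogamy. With each array left out in turn, the monogamy difference ran from -1.15 to -0.30, with adjusted p up to 0.545. The interaction was 0.77 (SE 0.57, adjusted p = 0.862), so a change of the sex difference with regime was not shown. It was 0.85 (adjusted p = 0.775) without polygamy female 3, 1.21 (adjusted p = 0.594) without monogamy male 1 and 0.36 (adjusted p near 1) without monogamy male 3.

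**Figure D4:**
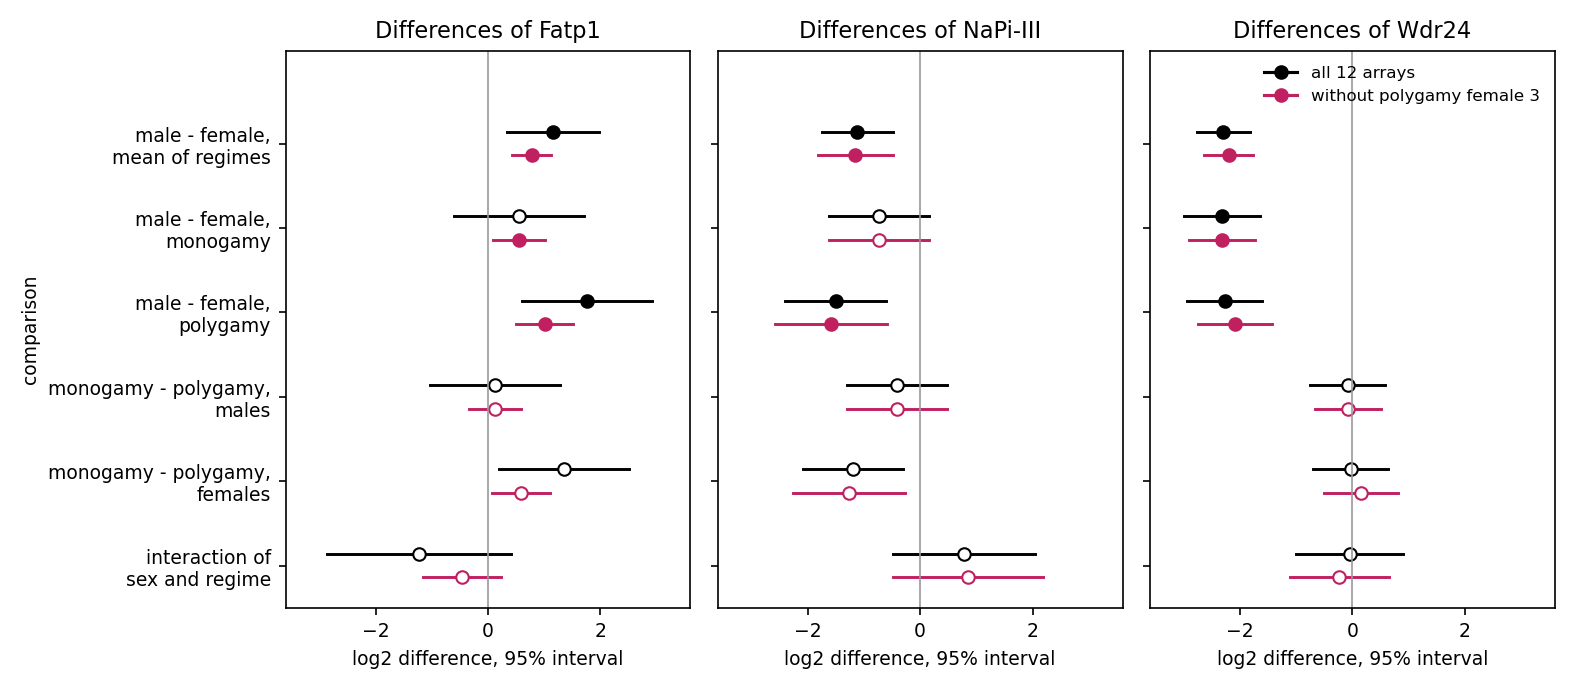
Log2 difference (horizontal axis, with 95% intervals from limma) of Fatp1, NaPi-III and Wdr24 in 6 comparisons (vertical axis), from all 12 arrays in black and without polygamy female 3 in red. Filled points had an adjusted p under 0.05, among them the sex difference of each gene on top, and the regime differences are open.

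NaPi-III averaged 10.84 ± 0.46 in monogamy females and 12.03 ± 0.17 in polygamy females (SD, n = 3 each). The difference of -1.19 (SE 0.40, 95% interval -2.08 to -0.30, adjusted p = 0.125) did not pass, although the regimes did not overlap, and it was -1.27 (adjusted p = 0.177) without polygamy female 3. The means were 10.11 ± 0.85 in monogamy males and 10.53 ± 0.24 in polygamy males (SD, n = 3 each), a difference of -0.42 (SE 0.40) that did not pass. It was 0.02, opposite in sign, without monogamy male 1. In that array NaPi-III lay 1.36 below the median of the other males (a shift of -1.36), where 1258 transcripts of like level shifted by a median of 0.11. Their quartiles were -0.84 and 0.70, and 17.6% of them shifted lower than NaPi-III. Averaged over both sexes, with the population as the unit, the regime difference was -0.80 for NaPi-III (SE 0.33, adjusted p = 0.318) and 0.74 for Fatp1 (SE 0.36, adjusted p = 0.319). For Fatp1 it was 0.37 (adjusted p = 0.503) without polygamy population 3, which holds polygamy female 3. For NaPi-III it was as large without that population (-0.80), and -0.46 (adjusted p = 0.678) without monogamy population 1.

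Wdr24 had the largest sex difference of the 3 genes and nearly equal means in the 2 regimes. Monogamy males had log2 values of 9.29, 8.55 and 8.42, and polygamy males had 8.58, 9.26 and 8.67. Monogamy females had 11.06, 11.14 and 11.01, and polygamy females had 10.90, 10.94 and 11.48. The highest male and the lowest female were 9.29 and 10.90, so the sexes were separated by a wide gap, and the regimes overlapped within each sex. The highest female was polygamy female 3.

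The sex difference of Wdr24 was -2.29 (SE 0.21, adjusted p = 6.30e-06), or 4.91-fold lower in males. Males averaged 8.79 ± 0.38 and females 11.09 ± 0.21 (SD, n = 6 each). It was -2.20 (SE 0.20, adjusted p = 6.37e-06) without polygamy female 3, -2.32 (adjusted p = 0.000152) within monogamy and -2.27 (adjusted p = 0.000175) within polygamy. The polygamy difference was -2.08 (adjusted p = 0.000269) without polygamy female 3. The male minus female difference was -1.78, -2.59 and -2.59 in the monogamy populations and -2.32, -1.68 and -2.81 in the polygamy populations. The interaction was -0.05 (SE 0.43, 95% interval -0.996 to 0.90, adjusted p = 0.979), and -0.23 without polygamy female 3.

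Between regimes Wdr24 differed by -0.08 in males (95% interval -0.75 to 0.59) and by -0.03 in females (95% interval -0.70 to 0.64), neither past the test. In males the means were 8.75 ± 0.47 under monogamy and 8.84 ± 0.37 under polygamy, and those of females were 11.07 ± 0.07 for monogamy and 11.11 ± 0.32 for polygamy (SD, n = 3 each). Leaving out polygamy female 3 gave a female difference of 0.15, opposite in sign, and the 3 monogamy females then lay above the 2 remaining polygamy females. Monogamy male 1 and polygamy male 2 were the males with the most Wdr24. In monogamy male 1 Wdr24 shifted by 0.71 from the median of the other males, and 761 transcripts of like level shifted by a median of 0.21. Their quartiles were -0.89 and 1.04, and 64.1% of them shifted lower than Wdr24. The part of this array's raised female transcripts in its Wdr24 value was not tested.

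Of the 3 genes, 3 were called for sex, 1 higher and 2 lower in males, and sex called 55.9% of all 16637 transcripts, with 21.3% higher and 34.6% lower in males (65.4% in all without polygamy female 3). The median difference over all transcripts was -0.34. The sexes did not overlap for 2 of the 3 (Fatp1 and Wdr24), against 34% of all transcripts, so neither count sets the 3 genes apart from the rest. For regime in females 0 of the 3 were called, against 0.0601% of all transcripts (10 calls, and 4824 at an unadjusted p under 0.05). The regimes did not overlap in females for 2 of the 3 (Fatp1 and NaPi-III), against 38.2% of all transcripts. Leaving out polygamy female 3 made it 3 of the 3, against 58.1% of all transcripts. Within a regime, the sexes did not overlap for 2 of the 3 under monogamy (63.3% of all transcripts) and for 3 of the 3 under polygamy (52.8%). For regime in males 0 of the 3 and 0% of all transcripts were called by limma, with 220 transcripts at an unadjusted p under 0.05, and the regimes overlapped in males for all 3 genes (7.75% of all transcripts did not). The interaction and the regime averaged over the sexes also called 0 of the 3 and 0% of all transcripts, with 593 and 2511 transcripts at an unadjusted p under 0.05. In both of these the populations of the 2 regimes did not overlap for Fatp1 or NaPi-III. The share of all transcripts without overlap was not counted there, so whether this sets the 2 genes apart cannot be said. Weights per array ran from 0.0463 for polygamy female 3 to 12.2 for monogamy male 2. With them the regime difference in females was called for NaPi-III (-1.14, adjusted p = 0.00907) and for Fatp1 (0.77, adjusted p = 0.0116), and that in males for NaPi-III (-0.50, adjusted p = 0.0364). The same fit called 6614 of all 16637 transcripts for regime in females and 6691 for regime in males.

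The levels of the 3 genes were also set against each other within each sex, as 6 relations over 6 arrays. None passed (smallest adjusted p 0.363). In males, Pearson r was -0.72 for Fatp1 with NaPi-III (Spearman rho -0.14, exact permutation p = 0.242), 0.69 for Fatp1 with Wdr24 (rho 0.37, exact permutation p = 0.197) and -0.75 for NaPi-III with Wdr24 (rho -0.60, exact permutation p = 0.136). Without the 2 arrays farthest from the median of the first gene these became 0.66, 0.30 and -0.31, and monogamy male 1 was among the arrays left out each time. In females, r was -0.55 for Fatp1 with NaPi-III (rho -0.77, exact permutation p = 0.178), -0.76 for Fatp1 with Wdr24 (rho 0.09, exact permutation p = 0.325) and -0.003 for NaPi-III with Wdr24 (rho -0.49, exact permutation p = 0.908). Without the 2 farthest arrays they became -0.90, 0.64 and -0.35. Females of the 2 regimes did not overlap in Fatp1 or in NaPi-III, and 3 arrays a regime are too few for a correlation within it.

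Of 43 genes listed for the GATOR and TORC1 pathway, for fatty acid transport and activation and for phosphate transport, 1 was among the named identifiers. This was mio (FBtr0077835), another subunit of GATOR2. Its log2 values were 10.86, 10.57 and 10.30 in monogamy males and 10.23, 10.84 and 10.46 in polygamy males. They were 11.46, 11.15 and 11.17 in monogamy females and 10.57, 11.13 and 9.03 in polygamy females. With all arrays its sex difference was -0.21 (SE 0.32, adjusted p = 0.601) and did not pass. In the fit without polygamy female 3 it was -0.51 (SE 0.18, adjusted p = 0.0303), lower in males as Wdr24 was, and smaller in size. In females the monogamy minus polygamy difference of mio was 1.02 (adjusted p = 0.169), and 0.41 (adjusted p = 0.316) without polygamy female 3, neither past the test. In polygamy female 3 mio shifted by -2.12, where 1328 transcripts of like level shifted by a median of -0.48. Wdr24 and mio thus stood at opposite ends of the females in that array.

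Among the other named transcripts, the patterns most like each gene over the 12 arrays were ranked by Pearson r, as a description of arrays that share sex, regime and platform. For Fatp1 they were the shared transcript of CG12016 and Dpm2, a regulatory subunit of dolichol phosphate mannose synthesis (r = 0.93), alpha-Spec, the alpha subunit of spectrin under the cell membrane (0.92), and the shared transcript of CG45085 and CG8026 (0.87). These values were lower without polygamy female 3. Among the 11 other arrays the first was the shared transcript of CG42306 and Gint3 (0.93), and that of CG12016 and Dpm2 stood at 0.64. Both alpha-Spec and the transcript of CG45085 and CG8026 ranked below that. For NaPi-III they were the shared transcript of CG42516 and Pbp49, of the complex that activates small nuclear RNA genes (0.93), rdx, an adaptor of a ubiquitin ligase (0.92), and LanA, a laminin (0.90). The first 2 of these also led without polygamy female 3, at 0.93 and 0.92. For Wdr24 they were the shared transcript of Tgs1, an enzyme that methylates RNA caps, and moi, which protects telomeres (0.96), that of Rad1, of the DNA damage checkpoint clamp, and Sws1 (0.96), and that of CG42455 and vnc (0.94). Over those 11 arrays the transcript of Tgs1 and moi reached 0.99 with Wdr24. Over the 12 arrays such values were common: 3.09%, 1.77% and 3.23% of all transcripts had a higher r with Fatp1, NaPi-III and Wdr24 than the first named one. Over the 11 arrays the share was 0.114% for Tgs1 and moi with Wdr24. For CG42306 and Gint3 with Fatp1 it was 1.14%.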

How the data were processed

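The authors deposited 1 log2 value for each transcript on each array. RMA is the tool named for them, per the submitters' processing notes. Its version, the array's annotation and which arrays were normalized jointly are not given. All 12 columns matched a sample, and no value was filtered or changed. All 16637 transcripts were fitted in R 4.3.3 with limma 3.58.1 (lmFit, eBayes; 4 groups, 1 spread per transcript). A call was an adjusted p under 0.05 (Benjamini-Hochberg over all transcripts). For the regime averaged over the sexes, the 2 values of each population were averaged first. Single values were compared by two-sided exact permutation.

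The 3 genes, the lists and the rule for named genes (the 3 genes, their 3 closest named transcripts by Pearson r, and listed pathway genes with a named identifier) were chosen with earlier results of these data known. Per the labels, replicates are different populations with 1 array each, so p-values hold population and array spread together. Male and female samples of 1 population share a subject label, which pairs them. Their deviations from the group means correlated at 0.53, -0.07 and 0.40 under monogamy and at 0.09, 0.07 and -0.18 under polygamy. Alternatives were other normalizations, a filter on dim transcripts, another prior, array weights, the population as a block (statmod 1.5.0), a size threshold, fits of 1 sex or regime, and each array left out. The fits were tested on simulated data. Arrays have no read depth: their number limits the precision.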

Additional observations from a re-analysis of the deposited data

Results flagged for a closer look

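Within the 6 arrays of a sex, 6 sets of values (3 genes in 2 sexes) were searched for an array whose gap to its nearest neighbour, as a share of the range, was above the critical value of Dixon's test at 95%. There was 1 such array: Fatp1 in polygamy female 3, at 10.12, where the ratio was 0.652. Fatp1 in monogamy male 1, at 13.78, came next with a ratio of 0.620. By chance about 1 set in 20 would hold such an array, and polygamy female 3 also stands apart over all transcripts.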

How the results depend on the processing

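The averaged sex difference kept its direction and its call for all 3 genes under all alternatives run, from 0.78 to 1.42 for Fatp1, from -1.33 to -0.90 for NaPi-III and from -2.43 to -2.20 for Wdr24. The population as a replicate block changed no call of the 3 genes: with a fixed block the sex differences were 1.16 (adjusted p = 0.0292), -1.12 (adjusted p = 0.00674) and -2.29 (adjusted p = 0.000301). With array weights (gene-by-gene method, weights from 0.0463 to 12.2, since the default method did not converge), the monogamy sex difference was called for NaPi-III (-0.89) and Fatp1 (0.43), the regime difference was called in females for NaPi-III (-1.14) and Fatp1 (0.77) and in males for NaPi-III (-0.50), and turned for Fatp1 in males (-0.0088) and Wdr24 in females (0.17). Monogamy males then rested largely on male 2. The polygamy sex difference of Fatp1 with polygamy arrays alone was 1.77 and not called. The interaction of Wdr24 was 0.0541 when all arrays were quantile normalized as 1 set and 0.0537 when each sex was. Leaving out 1 array gave 0.43 to 0.65 for Fatp1 and -1.15 to -0.30 for NaPi-III within monogamy, 1.01 to 2.29 for Fatp1 within polygamy, -0.83 to 0.0168 for NaPi-III and -0.35 to 0.13 for Wdr24 between regimes in males, 0.59 to 1.87 for Fatp1 and -0.14 to 0.15 for Wdr24 between regimes in females, and -1.74 to -0.46 for Fatp1, 0.36 to 1.21 for NaPi-III and -0.31 to 0.16 for Wdr24 in the interaction. Leaving out 1 population gave 0.37 to 1.02 for Fatp1, -1.03 to -0.46 for NaPi-III and -0.19 to 0.0405 for Wdr24 averaged over the sexes. Without polygamy female 3, r in females was -0.88 for Fatp1 with NaPi-III (exact permutation p = 0.0333, unadjusted) and 0.79 for Fatp1 with Wdr24. Of all transcripts, the 10 calls for regime in females became 1 after either quantile normalization, 0 with females alone, 6614 with array weights and 1 to 2080 without 1 array. The 0 for regime in males became 6691 with array weights. The 0 for the interaction became 1 without dim transcripts, 1 with a random block, 133 with array weights and at most 7 without 1 array. With array weights, calls for sex within monogamy were 12734 instead of 6389 and within polygamy 11374 instead of 7053, which was 4566 with polygamy arrays alone. The cause of these changes was not tested.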

Other observations

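Compared as deviations from the 4 group means, which removes the mean effect of sex and regime, the named transcripts closest to each gene were partly the same as over the 12 arrays. For Fatp1 they were the shared transcript of CG45085 and CG8026 (r = 0.99), that of CG12016 and Dpm2 (0.98) and Uba1, the ubiquitin-activating enzyme (0.98). Without polygamy female 3, an alternative added after seeing the data, these 3 stood at 0.83, 0.80 and 0.74, and 2.18% of all transcripts had a higher r with Fatp1 than the first of them. In those 11 arrays mio was the second closest named transcript to Fatp1 (0.81). For NaPi-III the closest were SuUR, known for under-replication of heterochromatin in polytene cells (0.85), the shared transcript of CG42497 and Tim10, a mitochondrial import chaperone (0.84), and sle, a nucleolar protein (0.84). For Wdr24 they were the shared transcripts of CG42455 and vnc (0.94), of CG7950 and Rpp14a (0.92) and of CG42375 and CG9288 (0.91). Without polygamy female 3, these 3 stood at 0.92, 0.92 and 0.89 with Wdr24, and those named for NaPi-III at 0.85, 0.94 and 0.84. The shares of all transcripts with a higher r were then 2.48%, 2.70% and 6.20% for Wdr24. For NaPi-III they were 8.61%, 1.23% and 9.32%. Of the 3 closest over the 12 arrays, 2 were found again for Fatp1, 0 for NaPi-III and 1 for Wdr24. Among all transcripts, the highest r over the 12 arrays belonged to FBtr0071599 for Fatp1 (0.995), FBtr0071266 for NaPi-III (0.983) and FBtr0078480 for Wdr24 (0.997), none of which has a symbol here.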
